A study of Mus musculus with 16 samples.

Results

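Peaks of THOC5-bound RNA that fell in the first or the last exon of a coding transcript made up 1295 of 28998 peaks over 8 peak lists from primary mouse vascular smooth muscle cells. They were chosen by the deposited annotation, which names a transcript, an exon number and the number of exons: 427 peaks lay in exon 1, 834 in the final exon, and 34 in the only exon of a single-exon transcript. The annotation has classes of its own for peaks in UTRs, at transcription start sites, at transcript ends and in non-coding exons. These members therefore lie in the coding part of an end exon or near it, and UTR peaks are not among them. Another 7491 peaks of the same exon class lay in internal exons and served as the comparison. The 1295 peaks named 678 transcripts of 673 genes.

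THOC5 belongs to the THO complex, which is loaded on nascent RNA during transcription and recruits export factors such as ALYREF to the mRNA. In animal cells export factors gather near the capped 5′ end of the transcript and at exon junctions, and THOC5 has been linked to 3′ end processing through cleavage factors, so both ends of a transcript bear on how the complex works. In RNA immunoprecipitation with sequencing (RIP-seq), an antibody to the protein recovers the RNA it is bound to, the RNA is fragmented and sequenced, and regions rich in reads are called as peaks. A peak places an RNA region in the immunoprecipitate and is not a contact at single bases.

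There were 2 THOC5 lists in each of 4 conditions. Ctrl cells were wild type in growth medium, and Pi cells were wild type in osteogenic medium, the treatment used to drive smooth muscle cells towards a bone-like state. GFP OE cells, which the genotype label also gives as WT, and THOC5 OE cells, labelled as overexpressing THOC5, were both in osteogenic medium, and the titles mark both with Pi. The vector, its promoter and the age and strain of the mice are not named in the labels, which also do not say whether the replicates came from separate cultures, so every p below measures the spread between these lists. Lists held 2572 to 4795 peaks. The authors' lowest score was 14.9 to 29.0 in the 4 Ctrl and Pi lists and 6.31 to 12.6 in the 4 overexpression lists. Among marker genes, 8 of 16 smooth muscle contractile and 2 of 6 fibroblast genes had a peak of any class in some list. The counts were 0 of 6 for endothelial and 1 of 6 for leukocyte genes. Sites of all classes named 4330 genes, and the reference holds 21900 protein-coding genes. Counts this small do not establish the cell type. The contractile genes with no peak were Myh11, Cnn1, Des, Myocd, Flna, Cald1, Tpm1 and Myl9, and a missing peak does not show a missing transcript.

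Most first-exon peaks lay close to the annotated start of their genes, the outer end of the RefSeq gene. The median distance of a first-exon peak from the annotated start of its gene was 1072 bp, and 65.5% of the 357 peaks with a known gene strand were within 2000 bp, while 18.5% were over 10000 bp away. Last-exon peaks lay 1942 bp from the annotated gene end at the median (n = 698). Of the 427 first-exon peaks, 48 (11.2%) overlapped a promoter window of their own gene, in 28 genes. Such a window runs from 250 bases before to 50 bases after a transcript start of the RefSeq promoter table, which can lie inside the gene, so reaching it does not place a peak before the gene. Peaks at transcription start sites, in UTRs and at transcript ends have classes of their own in the annotation and are not members. The share of 11.2% and the distances from the gene start and the gene end therefore depend on the rule that chose the members. The window of the huntingtin gene, Htt, was reached in all 8 lists, and peaks of 4 lists covered the 30 bases just before that transcript start. The 30 bases before this transcript start of Htt, of the helicase gene Ddx10 and of the RNA exonuclease gene Rexo1, the 3 genes in which at least 2 lists covered them, are shown because peaks covered them. The RefSeq genes start at 34761721 (Htt), 53248170 (Ddx10) and 80564790 (Rexo1), so the bases of Ddx10 and Rexo1 and part of those of Htt lie inside the gene. They come from RefSeq (mm10), read 5′ to 3′ on the strand of the gene, with CG in capitals.
Htt, chr5:34761710-34761739, plus strand: ctCGtctcCGcCGgcatgaCGtcaCGggac
Ddx10, chr9:53248113-53248142, minus strand: cagcttgggggCGggttccCGgacttgCGc
Rexo1, chr10:80561561-80561590, minus strand: cttccCGgCGtccctagCGacagCGtccCG
Htt and Rexo1 hold 5 CG and Ddx10 holds 3. CG, which reads the same on both strands, was present in these 30 bases in 21 of the 28 windows reached (75%) and in 57.1% of all 32851 windows of the reference. The median GC content of the whole window was 63% for the genes with first-exon peaks, 60.7% for those with last-exon peaks, 62.7% for those with internal-exon peaks and 56.7% for all genes with a coding transcript. The genes of all 3 exon classes thus had windows richer in GC than the genome's genes, and this is a description without a test.

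Last exons held about 2 peaks for each peak in a first exon, and both kinds took a larger share of the lists without overexpression. First exons took 1.73% and 1.86% of peaks for Ctrl, 1.99% and 1.61% for Pi, 1.08% and 1.48% for GFP OE, and 1.17% and 1.11% for THOC5 OE. Last exons took 3.34% and 3.52% for Ctrl, 4.05% and 4.35% for Pi, 2.02% and 2.22% for GFP OE, and 1.97% and 1.93% for THOC5 OE. In both classes every list of Ctrl and Pi was above every overexpression list. The mean share in last exons was 3.82% ± 0.465 (SD, n = 4) in Ctrl and Pi and 2.03% ± 0.126 (SD, n = 4) in GFP OE and THOC5 OE, a difference of -1.78 percentage points (two-sided exact permutation p = 0.0286, adjusted p = 0.114 by Benjamini-Hochberg over 8 comparisons of shares). In first exons the means were 1.79% ± 0.164 and 1.21% ± 0.183 (n = 4 each), and the difference was -0.59 percentage points (exact permutation p = 0.0286, adjusted p = 0.114). With 4 lists against 4 the smallest exact p is 0.0286, and over these 8 comparisons no adjusted p under 0.05 can be reached. Pi, in the same osteogenic medium as the overexpression lists, lay with Ctrl. The lists with and without overexpression also differed in their lowest score, as given next.

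**Figure D1:**
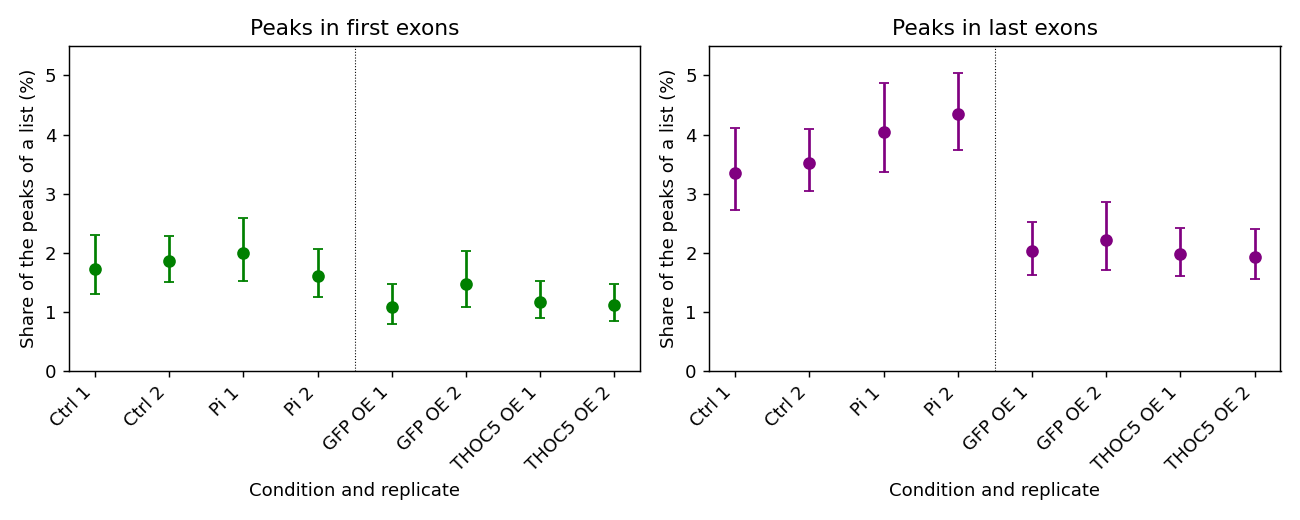
Share of each list's peaks (percent, y axis) that lie in first exons (left) and last exons (right), for the 8 lists by condition and replicate; bars are 95% Wilson intervals, which cover counting error only. The 4 lists left of the dotted line hold 3.34% to 4.35% of their peaks in last exons and the 4 overexpression lists 1.93% to 2.22%.

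The lowest score of a list moved with this split, and its part in the result was not separated. With only peaks at or above a score of 29, the highest of the 8 lists' lowest scores, the difference was -1.64 points in last exons and -0.55 points in first exons. As a share of exon-class peaks alone, last exons took 9.31% to 14.0% in Ctrl and Pi and 6.47% to 8.44% under overexpression, still without overlap. First exons took 4.82% to 6.65% and 3.45% to 5.63% of exon-class peaks, which overlap. Peaks in single-exon transcripts followed the same order, with 5 to 9 in each Ctrl and Pi list, 2 in each GFP OE list and 0 in both THOC5 OE lists; 0 of 4618 and 0 of 4240 peaks allow a share of up to 0.0650% and 0.0708%.

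Within the 2 pairs of matched conditions the shares differed less. Pi exceeded Ctrl in last exons by 0.77 percentage points (4.20% ± 0.211 against 3.43% ± 0.129, SD, n = 2 each), and neither list of one overlapped the other (exact permutation p = 0.333, the smallest that 2 lists against 2 allow; adjusted p = 0.444). In first exons Pi and Ctrl differed by 0.0057 points, and the 2 Ctrl lists lay between the 2 Pi lists. THOC5 OE against GFP OE differed by -0.17 points in last exons (1.95% ± 0.0259 against 2.12% ± 0.138, exact permutation p = 0.333, adjusted p = 0.444) and by -0.14 points in first exons (exact permutation adjusted p = 1). The last-exon difference was -0.069 points without GFP OE replicate 2 and -0.26 without GFP OE replicate 1, -0.023 among peaks above the median score, and -0.32 with the common score floor; the first-exon difference was 0.061 without GFP OE replicate 2 and -0.34 without GFP OE replicate 1. GFP OE against Pi, which share osteogenic medium and differ in the GFP construct, gave -2.08 points in last exons and -0.52 points in first exons (exact permutation p = 0.333, adjusted p = 0.444 for each), with no overlap of lists in either class. The first-exon difference was -0.32 points without GFP OE replicate 1 and -0.33 without Pi replicate 1, and -0.34 without transcripts of fewer than 4 exons.

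Peaks in first exons ranked above those in last exons, and both ranked below peaks in internal exons. The rank is the percentile of the authors' score within a list, from 0 for the weakest peak to 100 for the strongest. The median percentile of first-exon peaks was 58.6 and 57.8 for Ctrl, 53.7 and 58.2 for Pi, 65.6 and 55.7 for GFP OE, and 56.6 and 64.9 for THOC5 OE. For last-exon peaks it was 54.8 and 40.5 for Ctrl, 46.9 and 42.6 for Pi, 48.0 and 49.0 for GFP OE, and 41.9 and 55.8 for THOC5 OE. First exons were higher in 8 of 8 lists, by 11.5 percentile points on average (58.9 ± 4.20 against 47.4 ± 5.73, SD, n = 8; two-sided exact sign-flip permutation p = 0.00781, the smallest that 8 lists can give, adjusted p = 0.0117 over 6 such tests). First exons were below internal exons by 7.0 points and last exons below internal exons by 18.4 points, each in 8 of 8 lists (exact permutation p = 0.00781, adjusted p = 0.0117 for both).

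**Figure D2:**
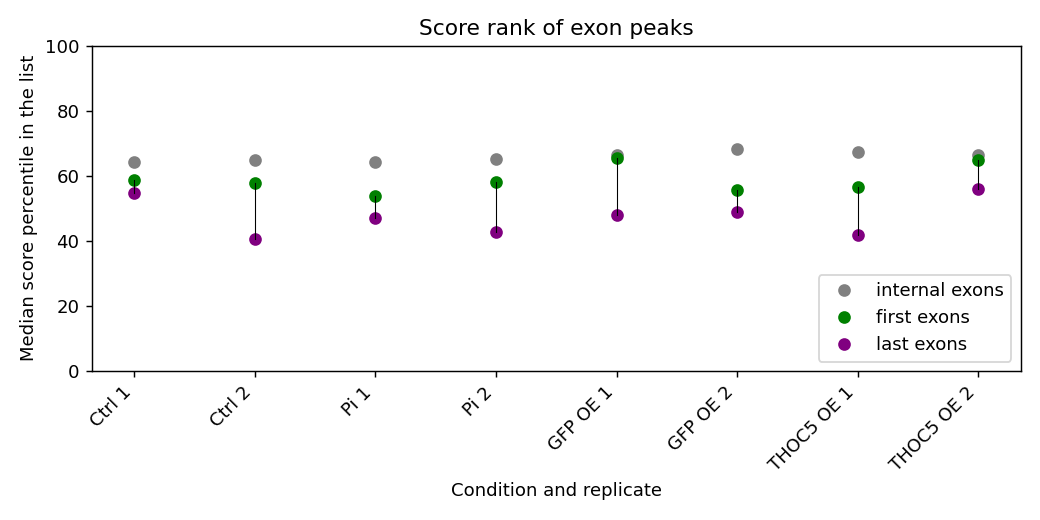
Median score percentile (y axis, 0 to 100) of peaks in internal, first and last exons in each of the 8 lists; black lines join first and last exons of one list. In every list the order from the top is internal, first and last, and the gap between first and last is 11.5 points on average.

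The rank of first above last exons depended on which exons were counted. When UTR peaks of the same exons were added to both classes the mean difference became -2.23 points (exact permutation adjusted p = 0.352), and without transcripts of fewer than 4 exons it was 5.06 points (adjusted p = 0.0844). With every list cut to its 2572 strongest peaks, none of the 3 rank differences passed the threshold (exact permutation adjusted p = 0.105 for first against last, 0.272 for first against internal and 0.0625 for last against internal exons), nor did they among peaks above the median score (0.234, 0.647 and 0.172), where first exons were 1.92 points above internal ones. Transcripts of first-exon peaks had 18 exons at the median, those of last-exon peaks 10, and those of internal-exon peaks 28. The gap between first and last exons was 12.0 points in the 4 overexpression lists and 10.9 points in the other 4, a difference of 1.17 points (two-sided exact permutation p = 0.743).

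Zinc finger genes were frequent among the last-exon peaks and ranked low there. Many C2H2 zinc finger proteins, KRAB repressors above all, carry their whole row of fingers in one long final exon. Of the 472 genes with a last-exon peak, 91 (19.3%) had a symbol beginning with Zfp, Zscan or Zkscan and a number. The figure was 4 of 195 (2.05%) for first exons, 36 of 1579 (2.28%) for internal exons, and 424 of 21900 protein-coding genes of the reference (1.94%). This group was chosen after its values were seen and is a description with no test. Such genes made up 13.4% to 28% of the last-exon peaks of a list. Their last-exon peaks had a median percentile of 28.9 (n = 153 peaks), against 50.6 for the other last-exon peaks, and in each of the 8 lists the median of the zinc finger genes was the lower of the 2. Zfp607a had a last-exon peak in 6 lists at percentiles of 61.8 to 76.7, Zfp27 in 6 lists at 48.1 to 62.8 and Zfp112 in 6 lists at 21.1 to 30.6. Found in 4 lists were Zfp109 (1.57 to 15.3), Zfp14 (6.63 to 32.5), Zscan20 (18.1 to 39.0), Zfp287 (38.6 to 50.5) and Zfp772 (39.25 to 50.5). In internal exons the zinc finger peaks had a median percentile of 70.5 (n = 146 peaks), against 65.55 for the other internal-exon peaks. Without zinc finger genes in any exon class, first exons were above last exons by 7.19 points (exact permutation adjusted p = 0.0469).

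Peaks in first exons also recurred more often than those in last exons. A peak recurred if a peak of at least 1 other list overlapped it by 1 base or more. A site held by several lists counts in each of them, so the 8 within-list differences are not independent. The exact p-values on recurrence do not allow for this. Recurring peaks were 80.0% and 61.8% of first-exon peaks for Ctrl, 67.9% and 85.2% for Pi, 92.5% and 94.7% for GFP OE, and 88.9% and 91.5% for THOC5 OE. Among last-exon peaks they were 66.7% and 53.8% for Ctrl, 53.7% and 58.8% for Pi, 69.3% and 87.7% for GFP OE, and 84.6% and 87.8% for THOC5 OE. First exons were higher in 8 of 8 lists, by 12.5 percentage points (82.8% ± 12.1 against 70.3% ± 14.7, SD, n = 8; exact permutation p = 0.00781, adjusted p = 0.0117). The differences of first and of internal exons from last exons missed the threshold in lists cut to 2572 peaks (exact permutation adjusted p = 0.0625 for both) and above the median score (0.0703 for both). Last exons were below internal exons by 13.5 points, and 6 of 8 lists showed that direction (exact permutation p = 0.0312, adjusted p = 0.0375); the 2 exceptions were both THOC5 OE lists. That call was lost without Ctrl replicate 2 (exact permutation adjusted p = 0.0750), Pi replicate 1 (0.0563) or GFP OE replicate 2 (0.0563), and without zinc finger genes (0.0656). First and internal exons differed by -1.04 points (exact permutation adjusted p = 0.727), with first exons higher in 5 of 8 lists.

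Overlapping peaks of the 8 lists were merged into sites, each given the class of its best-ranked peak, which left 179 first-exon, 458 last-exon and 26 single-exon sites. Of the first-exon sites 46.9% appeared in 1 list, 15.6% in 5 or more and 9 in all 8. Of the last-exon sites 60.9% appeared in 1 list, 5.90% in 5 or more and 5 in all 8. For internal exons 43.2% appeared in 1 list and 18.8% in 5 or more. Of the 279 last-exon sites of 1 list, 225 came from Ctrl or Pi lists and 54 from overexpression lists, and of the 84 such first-exon sites 69 and 15. Of the 6070 sites of all classes found in 1 list, 3541 came from Ctrl or Pi lists and 2529 from overexpression lists. Sites of only Ctrl or Pi lists were 61.8% of last-exon sites and 52.0% of first-exon sites, against 36.1% of sites of all classes. Sites of 1 list had low ranks, with a median percentile of 23.5 in first exons and 28.7 in last exons, and those of 5 or more lists had medians of 79.1 and 77.7.

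**Figure D3:**
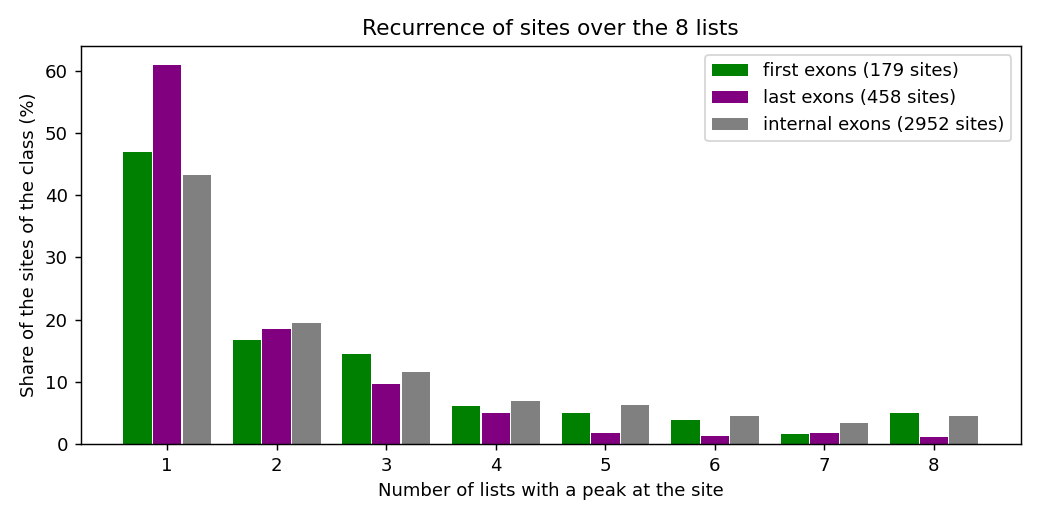
Share of sites (percent, y axis) found in 1 to 8 lists (x axis), for 179 first-exon, 458 last-exon and 2952 internal-exon sites. Sites of 1 list are 60.9% of last-exon sites, 46.9% of first-exon sites and 43.2% of internal-exon sites.

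The 9 first-exon sites found in all 8 lists were led by the gene of the unconventional myosin Myo18a (exon 1 of 40, chr11:77777499-77778037). Its percentile was 98.7 and 98.9 for Ctrl, 98.8 and 98.8 for Pi, 98.7 and 98.8 for GFP OE, and 98.8 and 99.0 for THOC5 OE, so its rank hardly moved. Ylpm1, which encodes a nuclear protein, followed at chr12:84996742-84997157 (exon 1 of 20). Its percentile was 96.0 and 97.7 for Ctrl, 96.9 and 97.5 for Pi, 96.4 and 95.4 for GFP OE, and 97.3 and 97.6 for THOC5 OE. Nav1, a neuron navigator of the microtubule system (exon 1 of 29, chr1:135584740-135585278), ranged from 90.7 to 95.3 over the 8 lists. The formin gene Fmn1, whose product assembles actin filaments (exon 1 of 17, chr2:113441689-113442227), ranged from 88.8 to 96.2. Sipa1l2, a Rap GTPase-activating protein (exon 1 of 21, chr8:125491912-125492465), ranged from 84.8 to 91.5, and the chromatin remodeller Chd9 (exon 1 of 38, chr8:90932455-90932875) from 80.7 to 88.7. These 6 sites stayed at 80.7 or above in every list.

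The other 3 sites varied more. Htt (exon 1 of 67, chr5:34761707-34762180), the gene with bases printed above, had a percentile of 31.6 and 70.2 for Ctrl, 56.9 and 69.6 for Pi, 75.7 and 67.8 for GFP OE, and 77.2 and 76.4 for THOC5 OE. Its lowest value, in Ctrl replicate 1, stood apart from the other 7. Itpr2, a calcium release channel of the endoplasmic reticulum (exon 1 of 56, chr6:146501568-146502041), had 35.7 and 68.2 for Ctrl, 45.5 and 60.5 for Pi, 63.5 and 63.7 for GFP OE, and 79.4 and 73.9 for THOC5 OE. Both THOC5 OE lists were above the other 6 for Itpr2. Atrnl1, named after its values were seen because it completes the 9, had 25.3 and 44.1 for Ctrl, 41.6 and 15.2 for Pi, 55.6 and 61.3 for GFP OE, and 70.4 and 74.3 for THOC5 OE, with no overlap between the overexpression lists and the rest. For Itpr2 and Atrnl1 the annotation put the peak in the first exon class in 4 of 8 lists, and in another class in the other 4.

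In last exons the 5 sites of all 8 lists were led by Scaf8, whose product binds the tail of RNA polymerase II (exon 20 of 20, chr17:3197519-3197958). Its percentile was 93.3 and 94.7 for Ctrl, 94.5 and 95.8 for Pi, 94.8 and 94.2 for GFP OE, and 95.1 and 95.7 for THOC5 OE, and the conditions overlapped. Nisch, described below with last-exon peaks at 99.7 to 99.9, also had a site in all 8 lists. The best-ranked peak of that site has another class, so Nisch is not among the 5. Hivep2, a zinc finger transcription factor (exon 9 of 9, chr10:14149131-14149604), had 84.0 and 88.4 for Ctrl, 84.4 and 83.6 for Pi, 91.0 and 90.4 for GFP OE, and 91.2 and 90.1 for THOC5 OE. Synj1, a phosphoinositide phosphatase of endocytosis (exon 32 of 32, chr16:90938108-90938646), had 66.7 and 80.1 for Ctrl, 80.4 and 77.1 for Pi, 86.2 and 86.3 for GFP OE, and 86.4 and 88.1 for THOC5 OE. For both genes the 4 overexpression lists were above the other 4. Cacna1g, a T-type calcium channel (exon 35 of 35, chr11:94409217-94409632), ranged from 70.5 to 82.7 and Krba1 (exon 16 of 16, chr6:48415827-48416365) from 62.5 to 86.8, with all 4 overexpression lists on top for Krba1 and an overlap for Cacna1g.

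**Figure D4:**
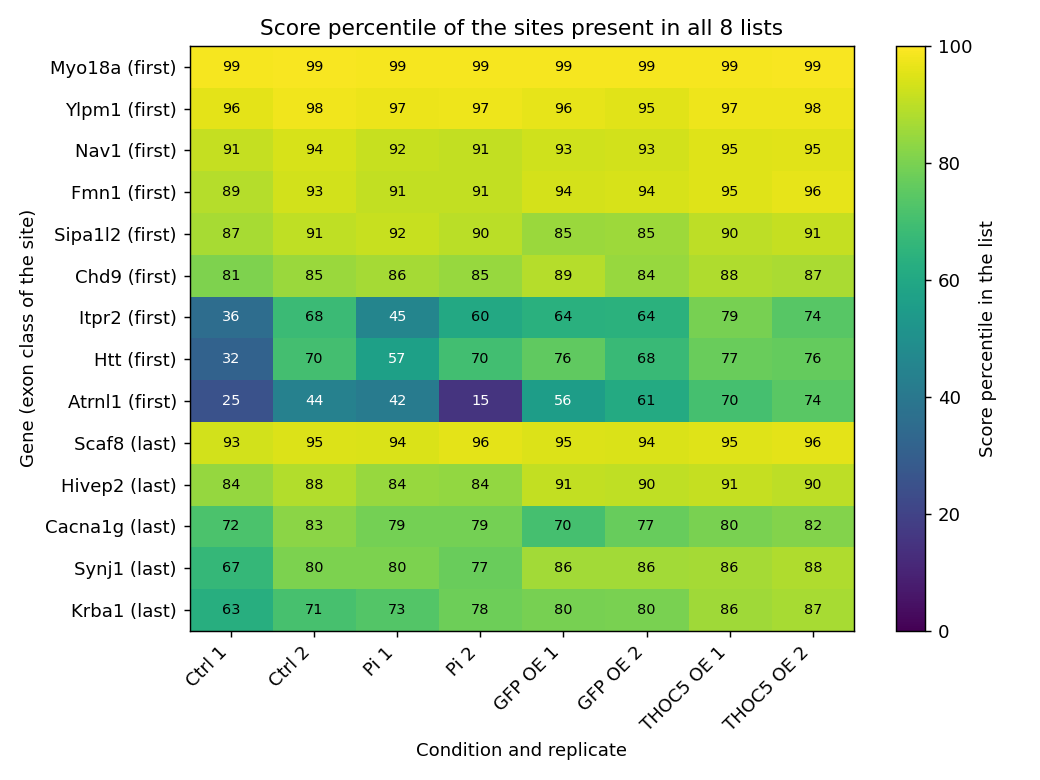
Score percentile (colour, 0 to 100, printed in each cell) of the 9 first-exon and 5 last-exon sites present in all 8 lists (rows), by condition and replicate (columns). Myo18a stays between 98.7 and 99.0, while Atrnl1 goes from 15.2 to 74.3.

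Such a shift of rank was also seen in sites of other classes. Of 324 sites of any class in all 8 lists, 37% had all 4 overexpression percentiles above the other 4 and 1.23% had all 4 below. Among the end exons this held for 2 of 9 first-exon sites (Atrnl1 and Fmn1) and 3 of 5 last-exon sites (Hivep2, Krba1 and Synj1), and 0 were below. Percentiles depend on how many weak peaks a list admits: with the common score floor, 20.4% of 318 sites were above and 6.6% below, and of the end exons only Hivep2 and Synj1 of 5 last-exon sites and 0 of 8 first-exon sites were still above.

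The strongest end-exon peaks were not always in both lists of a condition. Fat1, an atypical cadherin known to restrain smooth muscle growth, held the top peak of its whole list in both Ctrl lists (exon 1 of 26, chr8:44950413-44950856) and ranked 2nd in GFP OE replicate 1 (percentile 99.97). The other 5 lists, GFP OE replicate 2 among them, had no peak at that site. The protocadherin gene Pcdh7 (exon 1 of 2, chr5:57720995-57721410) ranked at 99.9 in both Ctrl lists and at 99.8 in Pi replicate 2, with no peak there in the other 5. Arhgef17, a guanine nucleotide exchange factor (exon 1 of 21, chr7:100929013-100929428), ranked at 99.0 to 99.5 in 6 lists and had no peak there in either GFP OE list. A further Arhgef17 peak in the same exon was present in Ctrl replicate 2, Pi replicate 2 and GFP OE replicate 1 (98.6 to 99.3). In last exons the gene of nischarin, Nisch (exon 21 of 21, chr14:31171527-31171970 in Ctrl replicate 1), had the strongest peak in 7 lists, at 99.7 to 99.9; in THOC5 OE replicate 2 the peak at that site is in the 3′ UTR class. Wsb1, at 99.0 in Ctrl replicate 2, Col6a1, a collagen VI chain, at 98.8 in Pi replicate 2, and Srcap, a chromatin remodeller, at 97.2 in Pi replicate 1 were in the top of 1 list and had no overlapping peak in any other. These genes were chosen after their values were seen.

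Over all lists, 76.4% of the 55 first-exon peaks above percentile 95 and 73.5% of the 34 last-exon peaks above it were also in the other list of their condition, as were 77.1% of 795 internal-exon peaks. From percentile 50 to 75 the shares were 49.4%, 30.9% and 48.2%, and up to percentile 25 they were 23.8%, 20.8% and 25.2%. The absence of a peak from a list thus occurred at every rank, including the top, and why was not tested.

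**Figure D5:**
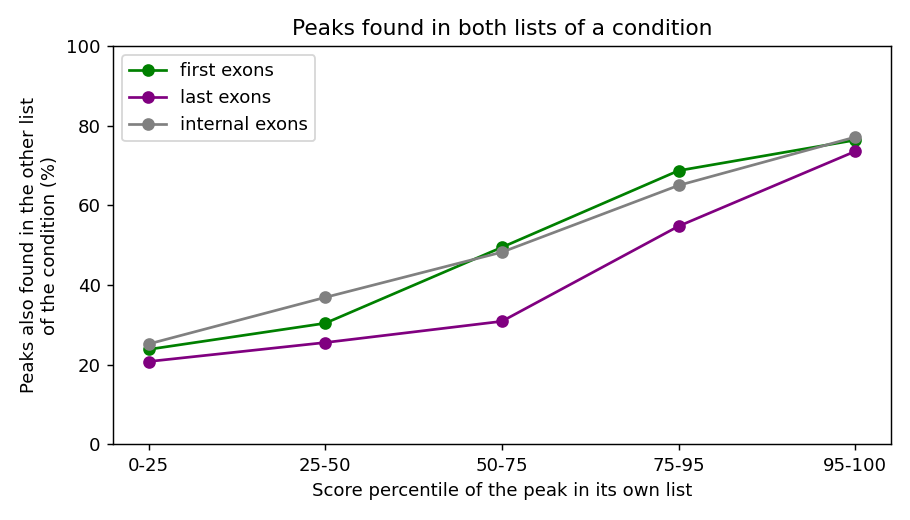
Share of peaks (percent, y axis) that overlap a peak in the other list of their condition, by the percentile of the peak in its own list (x axis), summed over the 8 lists, for first, last and internal exons. Shares are 20.8% to 25.2% up to percentile 25 and 73.5% to 77.1% above percentile 95.

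Osteogenic medium was compared with growth medium by counting sites that both lists of a condition held and the other condition lacked. Of 550 end-exon sites of these 4 lists, 20 were shared by the Pi lists and lacking in Ctrl (3.64%, where 2.59% of the 8536 sites of all classes were), 7 of them in first and 13 in last exons. The reverse held for 23 (4.18%, against 4.67% of all sites), 9 in first and 14 in last exons. Both shares were near those of all classes. Xpo5, the exporter of microRNA precursors, carried a last-exon site (exon 32 of 32, chr17:46241948-46242501) at percentiles of 85.8 and 85.7 in Pi and in no other list (the peak of Pi replicate 2 has another class), and no Xpo5 peak of any kind was found in Ctrl. The histone H3 methyltransferase gene Setd2 (exon 21 of 21, chr9:110617715-110618154) had 84.1 and 84.3 in Pi and 79.7 in THOC5 OE replicate 1, but both Ctrl lists held peaks elsewhere in the gene. Gcnt2, a glycosyltransferase, led the first exons with 76.1 and 76.3 in Pi and no peak at the site elsewhere, though 1 Ctrl list held a peak elsewhere in the gene.

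On the Ctrl side Fat1 came first, though both Pi lists held peaks elsewhere in the gene. Tsc22d2 (exon 1 of 3, chr3:58416985-58417400) had 97.3 and 97.9 in Ctrl and no peak at this site elsewhere, although 1 Pi list held another peak in the same exon. Maml2, a Notch coactivator (exon 1 of 4, chr9:13620183-13620598), had 91.6 and 94.6 in Ctrl, 94.0 and 91.9 in GFP OE and 92.8 in THOC5 OE replicate 2, and no peak at the site in THOC5 OE replicate 1 or in either Pi list, of which 1 held a peak elsewhere in the gene. Nrd1 (exon 1 of 29) had 82.0 and 89.9 in Ctrl and no peak at the site elsewhere. In last exons the leading gene was Zmym6 (exon 14 of 14), with 81.5 and 84.3 in Ctrl and no peak at the site in Pi; 1 Pi list had a peak in the same exon. Of the 20 Pi sites 12 lay in genes without any Ctrl peak, and of the 23 Ctrl sites 9 lay in genes without any Pi peak. The matching counts over sites of all classes were not made, so these are given as values only.

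THOC5 overexpression was compared with GFP overexpression in the same medium. In these 4 lists 19 of 266 end-exon sites were shared by the THOC5 OE lists and lacking in GFP OE (7.14%, against 8.21% of 7901 sites of all classes), 7 in first and 12 in last exons. In the other direction 4 sites (1.5%, against 1.39%) were shared by the GFP OE lists alone, all in last exons: Pwwp3b, Cep192, Herc6 and Gprasp2. Both shares were again near those of all classes. Copa, a subunit of the COPI coat (exon 33 of 33, chr1:172121471-172122009), had 96.3 and 96.5 in THOC5 OE and 95.8 in Pi replicate 1, and no GFP OE list had a Copa peak. Dapk1, a death-associated kinase (exon 26 of 26, chr13:60761022-60761560), had 96.3 and 96.8 in THOC5 OE, 93.5 and 94.8 in Ctrl and 96.1 in Pi replicate 1, and no peak in GFP OE. The acetyltransferase gene Ep300 (exon 31 of 31) had 89.7 and 91.0 in THOC5 OE and 90.8 in Pi replicate 1, though 1 GFP OE list held a peak elsewhere in the gene. Kif1b, a kinesin (exon 21 of 21), had 84.4 and 85.6 in THOC5 OE and no peak at the site elsewhere, though both GFP OE lists held peaks elsewhere in the gene.

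Among first exons the THOC5 OE side was led by Arhgef17, with the reservation given above. Kdm5c, a histone demethylase (exon 1 of 26), had 85.1 and 83.0 in THOC5 OE, 67.9 in Ctrl replicate 2 and 73.1 in Pi replicate 2. Macf1, a linker of actin and microtubules (exon 1 of 93, chr4:123683856-123684394), had 61.5 and 61.8 in THOC5 OE, 36.8 and 38.6 in Pi, and no peak at the site in Ctrl or GFP OE. Both Ctrl lists and both GFP OE lists held peaks elsewhere in Macf1. Nup153, a protein of the nuclear basket of the pore (exon 1 of 22, chr13:46727112-46727650), had 54.1 and 55.4 in THOC5 OE and 37.2 in Pi replicate 2. For Nup153, 1 GFP OE list held a peak elsewhere in the gene. Of the 19 sites 9 were in genes with no GFP OE peak, and the matching count over sites of all classes was not made.

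GFP OE against Pi, the comparison that holds medium constant and differs in the GFP construct, gave 19 of 437 sites in both GFP OE lists alone (4.35%, against 5.13% of 8014 sites of all classes). It gave 32 in both Pi lists alone (7.32%, against 3.93%), 10 in first and 22 in last exons. For internal-exon sites the share in both Pi lists alone was 4.13%, and the difference from the end exons was not tested. These Pi lists also had the larger shares of end-exon peaks given above. Pi and GFP OE serve in other comparisons as well, so the counts are not independent of those. Ext1, a polymerase of heparan sulfate (exon 1 of 11, chr15:53344939-53345354), had 96.9 and 97.9 in Ctrl, 97.1 and 97.0 in Pi and no peak at the site in the 4 overexpression lists; the annotation put 3 of these 4 peaks in the exon class. Mga, a transcription factor (exon 23 of 23, chr2:119964051-119964490), had 94.0 and 94.2 in Pi and 93.9 in Ctrl replicate 2. Arhgap21, a GTPase-activating protein (exon 24 of 24), had 95.1 and 93.6 in Pi, 91.0 and 92.0 in Ctrl and 94.4 in THOC5 OE replicate 2. For both Mga and Arhgap21, both GFP OE lists held peaks elsewhere in the gene. On the GFP OE side, Spag9, a scaffold of JNK signalling (exon 1 of 29), had 82.8 and 80.9 in GFP OE, 87.4 and 87.5 in THOC5 OE, 69.2 and 78.7 in Ctrl and no peak at the site in Pi, though both Pi lists held peaks elsewhere in the gene.

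Few end-exon sites followed overexpression in all 8 lists. Sites in all 4 overexpression lists and none of the other 4 were 3 of 663 (0.452%, against 0.874% of all 12362 sites): Ttc41 (exon 1 of 5), Adgrf2 (exon 6 of 6) and Zgrf1 (exon 26 of 26), at percentiles of 32.0 to 41.1, 6.02 to 25.2 and 12.4 to 17.3. Sites in all 4 Ctrl and Pi lists and none of the others were also 3 (against 0.283% of all sites): Ext1, at 96.9 to 97.9, Ankrd10 (exon 7 of 7), at 79.7 to 89.1, and the kinesin gene Kif3c (exon 1 of 8), at 47.5 to 71.0. For Ttc41 and for Zgrf1, 1 Pi list held a peak elsewhere in the gene. These comparisons were added after the values were seen. The 3 sites of the overexpression lists were weak and the 3 missing from them were stronger. The lowest score was 6.31 to 12.6 in the overexpression lists and 14.9 to 29.0 in the others, and its part in this contrast was not tested.

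Peaks at both ends of a gene were found in some list for 19 genes, and 9 had them in the same list. First-exon peaks were found in 195 genes and last-exon peaks in 472, while sites of all classes named 4330 genes. Whether 19 is few or many for such numbers was not tested. Chd9 had both in 7 lists, 118981 bp apart along the genome, at percentiles of up to 88.7 in exon 1 and 80.5 in exon 38. Ttc41 had both in all 4 overexpression lists, at no more than 41.1 and 38.2, and its last-exon peaks were in 5 lists. Cdk12, a kinase of the polymerase tail, Hmcn1, a matrix protein of 107 exons, Iqsec2 and the nuclear pore gene Nup155 had both in 1 list each. The end-exon peaks of Ttc41 and of Cdk12 named 2 transcripts each, so their 2 ends need not belong to the same transcript. Of the 195 genes with a first-exon peak 44.6% also had an internal-exon peak in some list, and of the 472 with a last-exon peak 29.7%. Internal-exon peaks were found in 1579 genes. The nearest start site belonged to another gene for 54.4% of last-exon peaks and 2.58% of first-exon peaks, which is why the transcript named for the exon, and not the nearest gene, was used.

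Single-exon transcripts gave 34 peaks in 25 genes. Smcr8, a partner of C9orf72 in autophagy, had a site in 5 lists at percentiles of 77.1 to 87.4, of which the annotation placed the peak in the exon class in 1. Adam1a had a site in 3 lists at 4.02 to 29.6. Arl4c (51.7 and 77.9), Gspt2, Ranbp6 and Rnf26 had a site in 2 lists each, and 73.1% of the 26 single-exon sites were in 1 list.

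Gene groups tied to THOC5 and to the osteogenic change of smooth muscle cells were counted too; over all genes 673 had an end-exon peak, and the reference holds 21900 protein-coding genes. Of 24 genes of the THO complex and mRNA export, 15 had a peak of any class and 3 had one in an end exon. Nup153 had them in 4 lists, in exon 1 and in exon 22 of 22 (83.3 in Pi replicate 1), while Nup98 (55.3 in Ctrl replicate 1) and Xpo5 (85.8 in Pi replicate 1) had one in 1 list. Of 30 mRNA decay genes 19 had a peak and 2 an end-exon peak, the helicase Upf1 (first exon, 56.9 in Pi replicate 2) and the deadenylase subunit Pan2 (last exon, 68.1 in THOC5 OE replicate 2). Of 19 Wnt genes 8 had a peak and 1, the receptor gene Fzd2, had one in its only exon (9.48 in Pi replicate 1). No end-exon peak was found in 16 contractile, 12 osteochondrogenic, 13 phosphate and calcification, 24 extracellular matrix or 19 TGF-beta and BMP genes, of which 8, 1, 2, 18 and 5 had a peak of another class. These are short preset lists: the matrix genes Col6a1 and Hmcn1, named above with end-exon peaks, are not among the 24.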

How the data were processed

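Peaks of 8 THOC5 RIP-seq libraries were used; the 8 input samples were not analysed here. Per the file headers, the authors annotated peaks with HOMER's annotatePeaks.pl against mm10, and each deposited list holds a peak score of unstated scale, and a distance to the nearest start. FastQC, Bowtie2, MACS2 and SAMtools are named without roles, per the submitters' processing notes; how peaks were called, and whether against the inputs, is unstated in the labels and headers. Each list has a single peak width, 415 to 553 bp. Scores were used as percentiles within a list, since depth is unknown. Wilson intervals and the limits for a count of 0 (3 counts) cover counting error only.

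Members were read from the annotation by exon number. Symbols and gene coordinates came from RefSeq (1287 of 1295 member peaks matched). Peaks overlapping by 1 base or more were merged into sites. Shares and percentiles were compared with exact permutation tests over lists, with Benjamini-Hochberg adjustment over 8 and 6 tests at 0.05 (Python 3.11.15, scipy 1.17.1, numpy 2.4.6, pandas 2.3.3), which were tested on simulated data. No 2 lists share an identical peak interval. Transcripts of 2 exons hold 21 first-exon and 55 last-exon peaks.

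Named are up to 8 first-exon and 10 last-exon sites of all 8 lists. Up to 4 first-exon and 6 last-exon sites are named per comparison and direction, by the lower of the 2 percentiles. Up to 6 single-exon genes, up to 6 genes with peaks at both ends, and members of preset groups with end-exon peaks in at least 2 lists follow. Members of preset groups with an end-exon peak in 1 list are named as well, outside this rule. Predicted genes were passed over, and the text marks other genes picked with their values in view. Some genes named by this rule are not reported here. Members, lists and tests were chosen with earlier results of these data known. Alternatives were a score threshold at each list's median, lists cut to 2572 peaks, UTR peaks added, transcripts under 4 exons left out, exon-class shares, mean percentiles, overlap of 50% of both peaks or with all 7 other lists, a replicate block and leaving out each list. A common score floor, leaving out zinc finger genes and absence from the same exon were added after seeing the data.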

Additional observations from a re-analysis of the deposited data

How the results depend on the processing

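Leaving out each list kept the share of last exons lower under overexpression (range -1.94 to -1.60 percentage points) and first exons ranked above last ones. The first-exon share of Pi against Ctrl ranged from -0.18 to 0.20, that of THOC5 OE against GFP OE from -0.34 to 0.061 (last exons -0.26 to -0.069), that of GFP OE against Pi from -0.72 to -0.32 (last exons -2.23 to -1.93), and recurrence of first against internal exons from -3.06 to 0.63. Recurrence of last against internal exons ranged from -16.1 to -12.5, and the gap in rank between first and last exons, overexpression lists against the others, from -1.20 to 3.30. Same-numbered lists did not deviate together over sites (correlations from -0.061 to 0.074), so numbers were not taken as pairs; with a replicate block, Pi exceeded Ctrl in last exons by 0.77 percentage points (exact permutation p = 0.5, the smallest possible) and no call changed. With peaks above each list's median score, rank differences were 8.15 (first against last), 1.92 (first against internal) and -6.23 (last against internal), recurrence differences 12.4, 0.92 and -11.4, and the gap between conditions -11.6; no adjusted p was under 0.05. With lists cut to 2572 peaks these were 7.18, -3.48, -10.7, 13.1, 0.056, -13.0 and -4.87. Site counts in the order of the report (Pi, Ctrl, THOC5 OE, GFP OE over THOC5 OE, GFP OE over Pi, Pi over GFP OE) were 7, 13, 11, 1, 5 and 21 above the median score, and moved to 14 (Ctrl), 10 (THOC5 OE), 8 and 19 (GFP OE against Pi, both ways) in cut lists. With UTR peaks added they were 32, 46, 68, 17, 43 and 55, the rank difference of first against last exons was -2.23, and the gap between conditions -9.93 (exact permutation p = 0.0286), against 1.17 as reported. Without transcripts under 4 exons first exons ranked 5.06 above last. The gap between conditions was -1.34 with mean percentiles, -1.70 with the common score floor and -0.94 without zinc finger genes. First against internal exons in recurrence was 0.50 with overlap of 50% and 2.31 with overlap in all 7 other lists. With the common score floor Pi against Ctrl in first exons was -0.022, first against internal rank -3.49, and counts 12 (THOC5 OE over GFP OE) and 11 (GFP OE over Pi); without zinc finger genes the first was -0.039 and last against internal recurrence -10.6. The causes were not tested. Absence from the same exon kept every count within 1.5 times. Depth is unknown, so a missing peak may be a weak one.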
